A study of Mus musculus with 6 samples.

Results

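The mitochondrial ribosomal protein genes were followed in mouse CD4 T cells. These are the genes whose products build the ribosome inside mitochondria. They were taken from the deposited count table by symbol, as the rows named Mrpl or Mrps plus a number and at most one letter (a, b or c), with at least 10 counts in at least 3 libraries. The rule found 77 genes among 24047 rows, and all 77 had at least 10 counts in all 6 libraries. Of these genes, 50 encode proteins of the large subunit, 26 encode proteins of the small subunit, and Mrps36 has no stable place in the ribosome. Mrps30 and Mrps18a were counted with the large subunit, where their proteins are found despite their names. The rule used no difference between the groups, and no gene of the pattern fell outside the count minimum. Mrps36 lay closest to it, with 25, 25, 16, 21, 15 and 43 counts, and Mrpl23 came next.

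The mitochondrial ribosome, or mitoribosome, translates the few proteins that the mitochondrial genome encodes, all of them core subunits of oxidative phosphorylation. Its ribosomal RNAs come from mitochondrial DNA, whereas its proteins are encoded in the nucleus, made in the cytosol and imported. Many have a counterpart in bacterial ribosomes and the others are specific to mitochondria. Activated T cells enlarge their mitochondrial network and draw on both subunits as they grow and divide.

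Both groups came from 7-week-old mice of the strain labelled B6.129, with 3 libraries labelled WT and 3 labelled Srsf1-cKO (genotype Srsf1-flox/flox dLck.Cre). Cre driven by the distal Lck promoter acts in T cells, and the labels do not say whether WT mice carried Cre or floxed alleles. Naive CD4 T cells from spleen were activated for 72 h with anti-CD3 (0.5 µg/mL) and anti-CD28 (1 µg/mL), antibodies that engage the T cell receptor complex and a costimulatory receptor. All cells then received PMA (100 ng/mL) and ionomycin (1 µM) for 4 h, which bypass the receptor. The comparison asks how the loss of SRSF1, a splicing factor, changes gene expression in these cells.

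Each library held between 7781283 and 10184268 gene counts. The deletion did not show in the whole-gene level of Srsf1, which stood at 495 ± 42.1 CPM (gene counts scaled to a common library size with TMM factors) in WT and 514 ± 39.1 in Srsf1-cKO (SD, n = 3 each), with a log2 fold change of 0.06 and an edgeR adjusted p of 0.780. A whole-gene count does not check the deletion of single exons, so every direction below is that of the labels. CD4 T cell markers summed to between 1875 and 2570 CPM in the 6 libraries. Summed markers of B, myeloid and dendritic cells were low but higher in the libraries labelled Srsf1-cKO. The 4 B cell markers stood at 7.98 to 19.4 CPM against 1.19 to 6.50 in WT. The 4 myeloid markers stood at 6.70 to 20.5 against 0.396 to 3.77, and the 4 dendritic cell markers at 13.0 to 26.0 against 1.98 to 6.24. Of these, Cd79a, Lyz2 and H2-Aa passed the test. H2-Aa made up most of the dendritic cell sum in every library, so the difference in that sum rested mainly on H2-Aa. Flt3, another dendritic cell marker, was not tested, was very low in every library and had a lower mean in Srsf1-cKO. Summed CD8 T cell markers went the other way, with 16.7 to 22.8 CPM in Srsf1-cKO against 24.6 to 42.5 in WT. Nearly all of that sum was Cd8b1, which did not pass (log2 fold change -0.60, edgeR adjusted p = 0.115). Cd8a, which was not tested, was very low, at 0.108 to 1.22 CPM in Srsf1-cKO and 0.332 to 0.520 in WT. Itgax was at 0 in the 3 WT libraries, Xcr1 in 5 libraries, and Ncr1 and the erythroid markers Hba-a1, Hbb-b1 and Alas2 in all 6. The share of these cells in the results below was not tested.

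Most mitochondrial ribosomal protein genes were modestly higher in Srsf1-cKO, and one large-subunit gene, Mrpl45, was less than 0.5 of its WT level. By edgeR's quasi-likelihood test with Benjamini-Hochberg adjustment over 10454 genes, 15 of the 77 rose (19.5%), 2 fell (2.6%) and 60 did not pass at an adjusted p of 0.05. Across all genes tested 8.9% rose and 9.5% fell, 18.4% in all. The median log2 fold change of the 77 was 0.27, against 0.01 for all genes, and the quartiles of the values lay at 0.05 and 0.47 (all genes: -0.33 and 0.34). Values above 0 were found for 63 genes and below 0 for 14, against 5281 and 5173 over all genes tested. In bulk RNA, fewer cells of a type and less RNA per cell cannot be told apart.

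The number of calls rested on 2 libraries in particular. Without WT replicate 1, 0 genes rose and 1 fell (17 and 3 at an unadjusted p under 0.05), and calls over all genes dropped to 1.84%. The unadjusted share over all genes was not worked out for that fit. With all libraries the unadjusted counts were 25 and 5, against 1795 and 1849 of the 10454 genes tested. Without Srsf1-cKO replicate 2, 2 rose and 1 fell, with 2.2% of all genes called. Leaving out Srsf1-cKO replicate 1 left 7 that rose (9.09%, against 5.35% of all genes), and leaving out replicate 3 left 9 (11.7%, against 6.53%). Without WT replicate 3, 10 rose (13.0%, against 8.47%) and 5 fell (6.49%, against 10.1%). Without WT replicate 2, 14 rose (18.2%, against 9.08%) and 2 fell (2.6%, against 9.57%). All 17 called genes kept their direction in each of the 6 fits with a library left out.

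**Figure D1:**
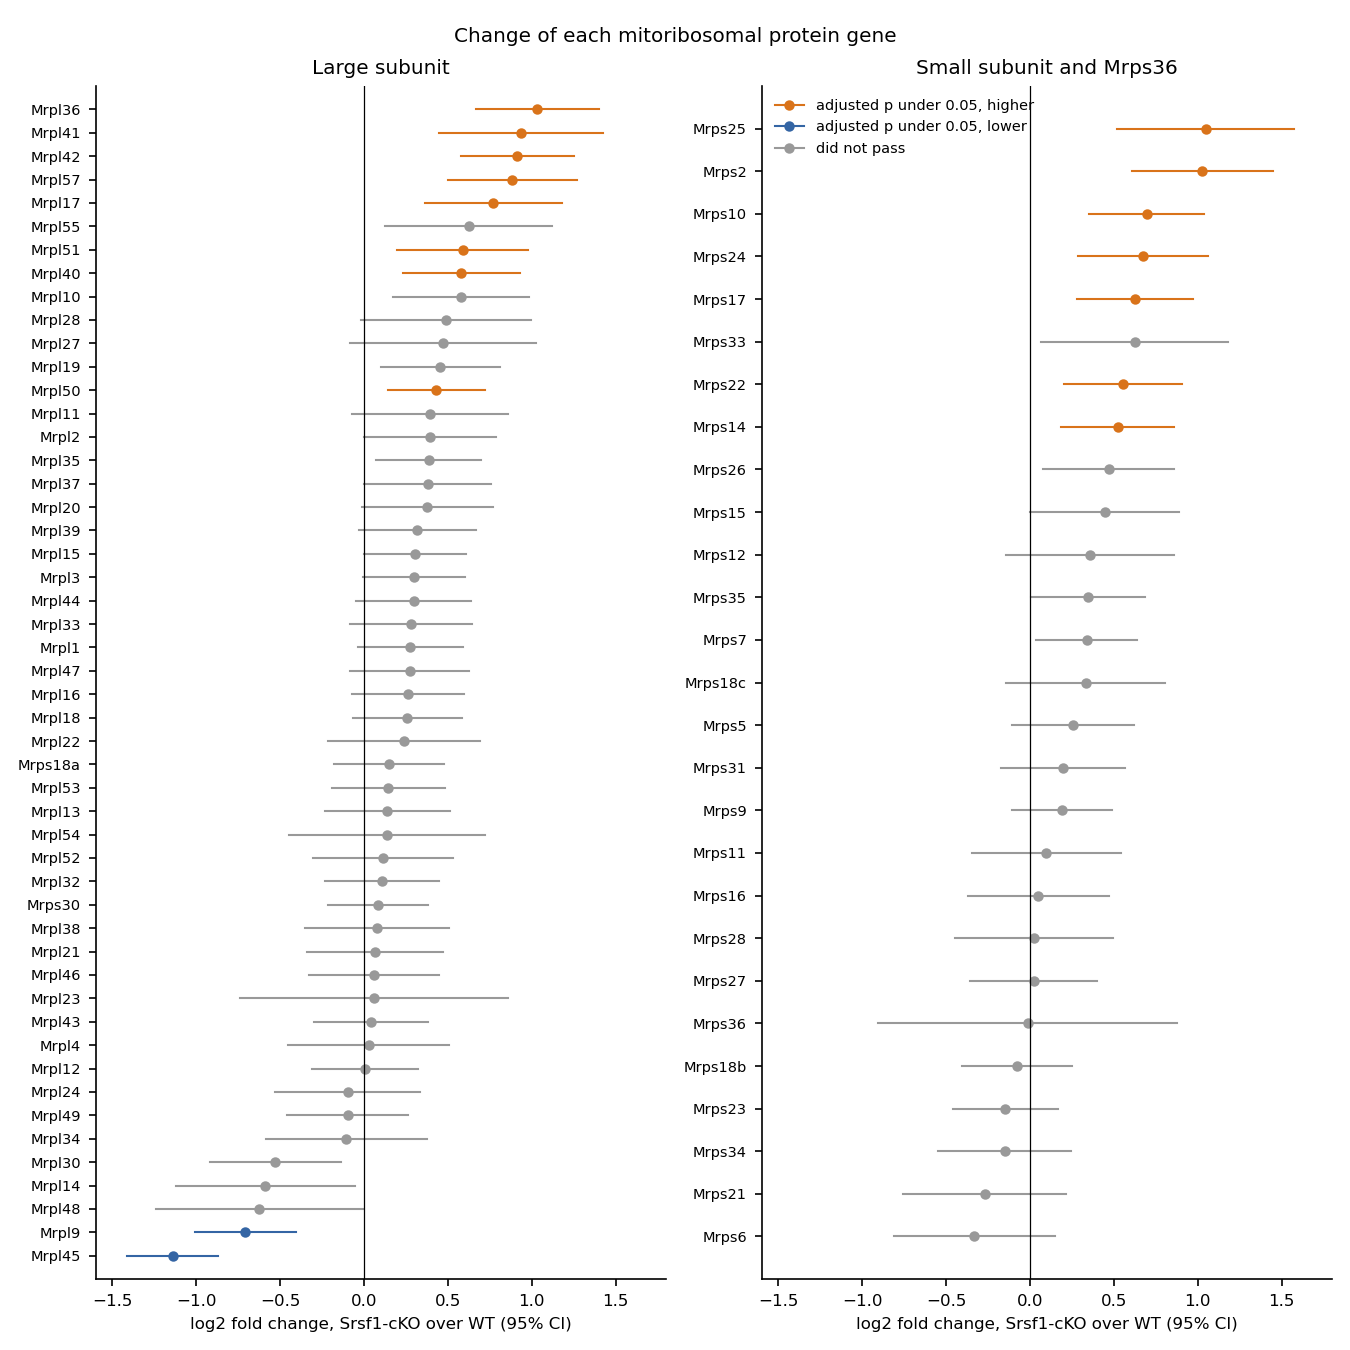
Log2 fold change (Srsf1-cKO over WT, x axis) of each of the 77 genes, grouped by subunit, with bars for the 95% interval of the fit; coloured points passed the test. The 15 genes that rose lie between 0.43 and 1.05, and Mrpl45 lies alone at -1.14.

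Mrpl45 gave the clearest change of the 77. Its protein sits at the tunnel exit of the large subunit and helps to hold the mitoribosome at the inner membrane, into which its products are inserted. Mrpl45 stood at 125, 119 and 120 CPM in the WT libraries and at 58.3, 53.6 and 53.3 CPM in the Srsf1-cKO libraries. The values were close together within each group and the groups lay far apart. The log2 fold change was -1.14 (SE 0.12, 95% interval -1.41 to -0.87, edgeR adjusted p = 0.00347), which is 0.453 of the WT level. Mrpl45 passed the test with any single library left out, the only one of the 77 to do so.

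Mrpl9 also fell. It encodes the counterpart of bacterial L9, a long protein at the base of the L1 stalk. Its level was 125, 120 and 102 CPM in WT and 75.7, 66.1 and 70.4 CPM in Srsf1-cKO, so the lowest WT library stayed above every Srsf1-cKO library. The log2 fold change was -0.71 (SE 0.13, edgeR adjusted p = 0.0115). It did not pass without WT replicate 1 or without Srsf1-cKO replicate 2 (highest adjusted p 0.0709).

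The promoters of both genes that fell are shown here beside those of the 3 genes with the smallest p among those that rose. Each line holds the 200 bases before the annotated start, 5′ to 3′ on the gene's strand, from RefSeq on GRCm38.p6. Capitals mark letters that match, on either strand, a motif of a factor known for mitochondrial genes: GCGCNTGCGC for NRF1 or AAGATGGC for YY1. The places are chr11:97315516-97315715 (plus strand) for Mrpl45, chr3:94443136-94443335 (plus) for Mrpl9, chr13:73330809-73331008 (plus) for Mrpl36, chr10:95501950-95502149 (minus) for Mrpl42 and chr2:28467866-28468065 (plus) for Mrps2.
Mrpl45: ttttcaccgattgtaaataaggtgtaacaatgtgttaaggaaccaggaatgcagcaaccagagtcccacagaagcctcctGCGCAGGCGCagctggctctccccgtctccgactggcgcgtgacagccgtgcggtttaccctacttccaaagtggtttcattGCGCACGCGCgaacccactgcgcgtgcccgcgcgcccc
Mrpl9: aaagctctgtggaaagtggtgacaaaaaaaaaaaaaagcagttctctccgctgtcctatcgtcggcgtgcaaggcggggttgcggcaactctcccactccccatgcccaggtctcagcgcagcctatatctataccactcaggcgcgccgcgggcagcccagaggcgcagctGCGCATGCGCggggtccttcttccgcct
Mrpl36: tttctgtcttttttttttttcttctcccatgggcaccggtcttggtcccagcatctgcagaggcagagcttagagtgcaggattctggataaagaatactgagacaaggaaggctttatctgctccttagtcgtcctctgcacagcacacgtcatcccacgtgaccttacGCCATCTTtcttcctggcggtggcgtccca
Mrpl42: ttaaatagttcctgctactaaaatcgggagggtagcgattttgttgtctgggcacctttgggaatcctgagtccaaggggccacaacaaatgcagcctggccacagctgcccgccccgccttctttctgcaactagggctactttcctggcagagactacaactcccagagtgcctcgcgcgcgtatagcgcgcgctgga
Mrps2: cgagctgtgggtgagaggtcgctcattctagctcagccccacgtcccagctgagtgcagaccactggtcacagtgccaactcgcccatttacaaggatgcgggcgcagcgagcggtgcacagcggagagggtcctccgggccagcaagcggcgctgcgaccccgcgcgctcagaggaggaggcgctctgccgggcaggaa

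Mrpl45 held the NRF1 letters at 120 and again at 38 bases before the start, with a further match just after it, and Mrpl9 held them at 28 bases before the start. Mrpl36, which rose, held the YY1 letters on the opposite strand at 30 bases before the start. Mrpl42 and Mrps2, which also rose, held neither in the bases shown, but Mrpl42 held the YY1 letters at 28 bases after the start. Of the 8 leading genes that rose, 3 held a match in the 200 bases before the start and 5 held none. Besides Mrpl36, the 3 were Mrpl57 and Mrpl17, with the NRF1 letters at 57 and 49 bases before the start. In windows of 250 bases before to 50 after the start, 68 of the 77 genes had a promoter in the table. Of these, 13 held the NRF1 letters (19.1%, against 12.8% of 8024 tested genes with a promoter and 4.6% of all 32851 promoters in the table). The YY1 letters stood in 12 (17.6%, against 5.92% and 2.75%) and CCGGAAG, an ETS motif, in 25 (36.8%, against 22.5% and 8.86%). The 15 genes that rose included 2 with the NRF1, 3 with the YY1 and 4 with the ETS letters. These matches describe letters in a window, and binding was not measured.

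Genes that rose came from both subunits. In the large subunit 8 of 50 rose (16.0%) and 2 fell (4.0%), against 8.9% and 9.5% of all genes, with a median log2 fold change of 0.27. In the small subunit 7 of 26 rose (26.9%) and 0 fell by edgeR, with a median of 0.33. No small-subunit gene was lower at an unadjusted p under 0.05 (all genes: 1849 of 10454), or by DESeq2 or limma-voom. Among proteins shared with bacteria 7 of 46 rose (15.2%) and 1 fell (2.17%, median 0.28), and among those specific to mitochondria 8 of 30 rose (26.7%) and 1 fell (3.33%, median 0.17). Whether these classes differ was not tested.

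Mrpl36, the counterpart of the very small bacterial protein L36, rose about as far as any. Its level was 19.3, 22.8 and 17.0 CPM in WT and 39.7, 39.1 and 42.4 CPM in Srsf1-cKO. The groups were wide apart, and the log2 fold change was 1.03 (SE 0.16, edgeR adjusted p = 0.00793). Mrpl42, specific to mitochondria, moved from 20.5, 21.9 and 18.3 CPM to 37.1, 37.2 and 40.2 CPM. The spread within each of its groups was small beside the gap, with a log2 fold change of 0.92 (SE 0.15, edgeR adjusted p = 0.00862). Mrpl36 and Mrpl42 each lost their call only without WT replicate 1 (adjusted p 0.0536 for both).

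Another 3 large-subunit genes rose by similar amounts. Mrpl57, specific to mitochondria, was at 10.3, 12.4 and 13.1 CPM in WT and at 21.7, 21.5 and 22.6 CPM in Srsf1-cKO (log2 fold change 0.89, SE 0.17, edgeR adjusted p = 0.0125). Mrpl41, whose protein also binds the survival factor BCL2, was at 7.85, 10.1 and 11.6 CPM and then at 15.8, 21.8 and 19.0 CPM (0.93, SE 0.22, adjusted p = 0.0216). Mrpl17, the counterpart of bacterial L17, was at 24.5, 35.9 and 26.5 CPM and then at 46.8, 46.7 and 54.9 CPM (0.77, SE 0.18, adjusted p = 0.0224). In each of these genes the highest WT library lay below the lowest Srsf1-cKO library, and the WT libraries were the more uneven for Mrpl17. Mrpl57 and Mrpl41 lost their calls without WT replicate 1 or Srsf1-cKO replicate 2, and Mrpl17 without either of these or Srsf1-cKO replicate 3.

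In the small subunit the leading genes were Mrps2, Mrps10 and Mrps25. Mrps2, the counterpart of bacterial S2, was at 31.5, 50.5 and 38.0 CPM in WT and at 79.5, 89.0 and 75.9 CPM in Srsf1-cKO. Its WT libraries were spread, yet none reached the Srsf1-cKO libraries, and the log2 fold change was 1.03 (SE 0.19, edgeR adjusted p = 0.0111). Mrps10, the counterpart of bacterial S10, was at 18.6, 19.1 and 20.98 CPM and then at 32.6, 33.5 and 28.9 CPM (0.70, SE 0.15, edgeR adjusted p = 0.0184). Mrps25, specific to mitochondria, was at 8.51, 11.2 and 6.07 CPM and then at 17.9, 18.0 and 17.4 CPM (1.05, SE 0.23, adjusted p = 0.0197). The Srsf1-cKO libraries were nearly level for Mrps25, while WT replicate 3 was low and WT replicate 2 high. Mrps2 lost its call without WT replicate 1 or Srsf1-cKO replicate 2, and Mrps10 and Mrps25 without either of these or Srsf1-cKO replicate 1.

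**Figure D2:**
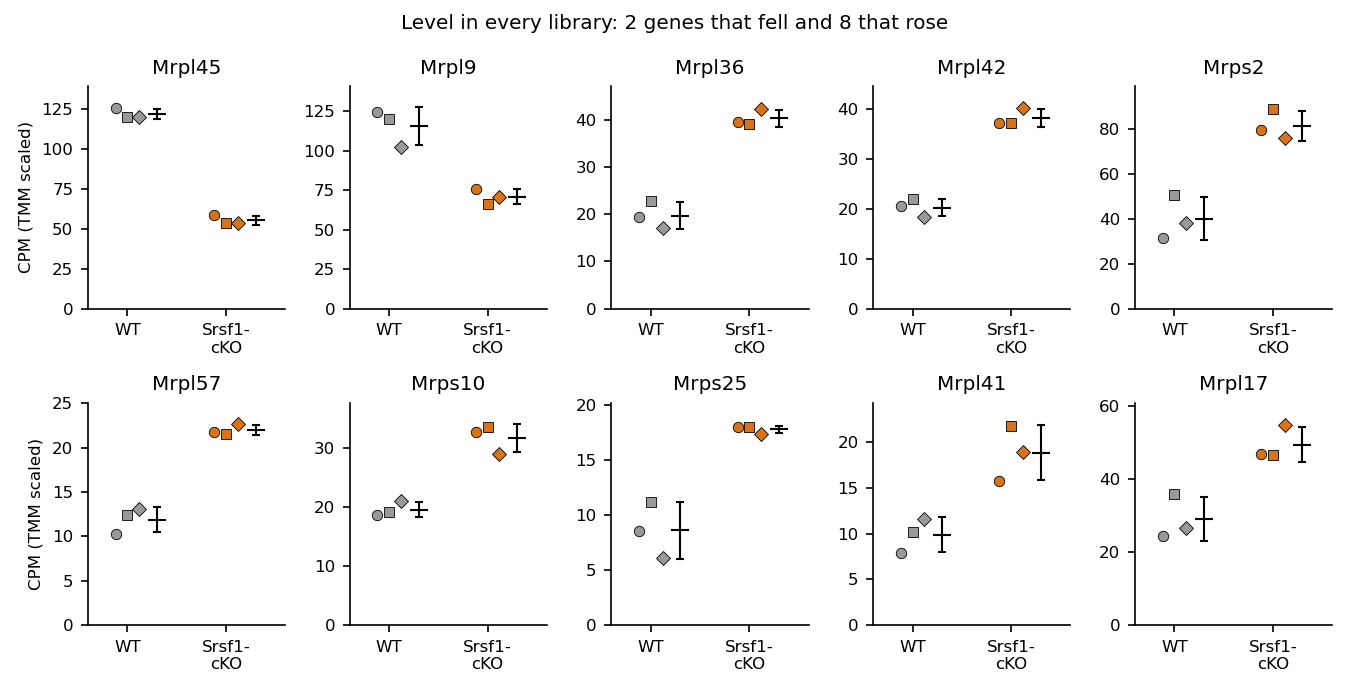
CPM (TMM scaled, y axis from 0) in each library for the 2 genes that fell and the 8 with the smallest p among those that rose; circle, square and diamond are replicates 1, 2 and 3, and the bar is mean and SD (n = 3). In all 10 panels the WT and Srsf1-cKO points do not overlap, from 119 to 125 against 53.3 to 58.3 CPM for Mrpl45.

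The other 7 genes that rose were Mrps24, Mrps17, Mrps22, Mrps14, Mrpl51, Mrpl40 and Mrpl50. Their log2 fold changes ran from 0.43 (Mrpl50) to 0.67 (Mrps24), with edgeR adjusted p between 0.0264 and 0.0460. These calls were often lost with a library left out: Mrps17 passed in 3 of the 6 such fits, Mrpl50 in 0, and the other 5 in 1 each. Over all 15 genes that rose the folds lay between 1.35 and 2.06.

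Of the 60 genes that did not pass, 21 were nevertheless higher in every Srsf1-cKO library than in any WT library. They were Mrpl1, Mrpl2, Mrpl3, Mrpl10, Mrpl16, Mrpl18, Mrpl19, Mrpl27, Mrpl35, Mrpl37, Mrpl39, Mrpl44, Mrpl47, Mrpl53, Mrpl55, Mrps7, Mrps9, Mrps26, Mrps31, Mrps33 and Mrps35. Their log2 fold changes ran from 0.14 to 0.62, with edgeR adjusted p from 0.0526 to 0.518. Mrpl55, the counterpart of bacterial L31, had the largest of these values at 0.62 (adjusted p = 0.0794), from 6.67 ± 1.07 to 10.3 ± 1.21 CPM (SD, n = 3). With the called genes, 39 of the 77 did not overlap between the groups (50.6%): 36 lay above WT and 3 below. Over all genes tested 39.4% did not overlap, 19.9% above and 19.5% below. The third gene below WT was Mrpl49, at 16.1 ± 0.596 and 15.0 ± 0.422 CPM (log2 fold change -0.10, adjusted p = 0.699).

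The remaining 38 genes overlapped between the groups, with log2 fold changes from -0.62 to 0.49. Mrpl48, a protein of the central protuberance, had the lowest of them, -0.62 (edgeR adjusted p = 0.139). It stood at 22.4, 32.8 and 15.6 CPM in WT and at 17.7, 12.5 and 15.7 CPM in Srsf1-cKO. Here WT replicate 2 was high and WT replicate 3 lay inside the range of the Srsf1-cKO libraries. Mrpl12, a protein of the stalk that binds translation factors, was chosen after its values were seen, as it had a log2 fold change of 0.01 (95% interval -0.31 to 0.33, adjusted p = 0.977).

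**Figure D3:**
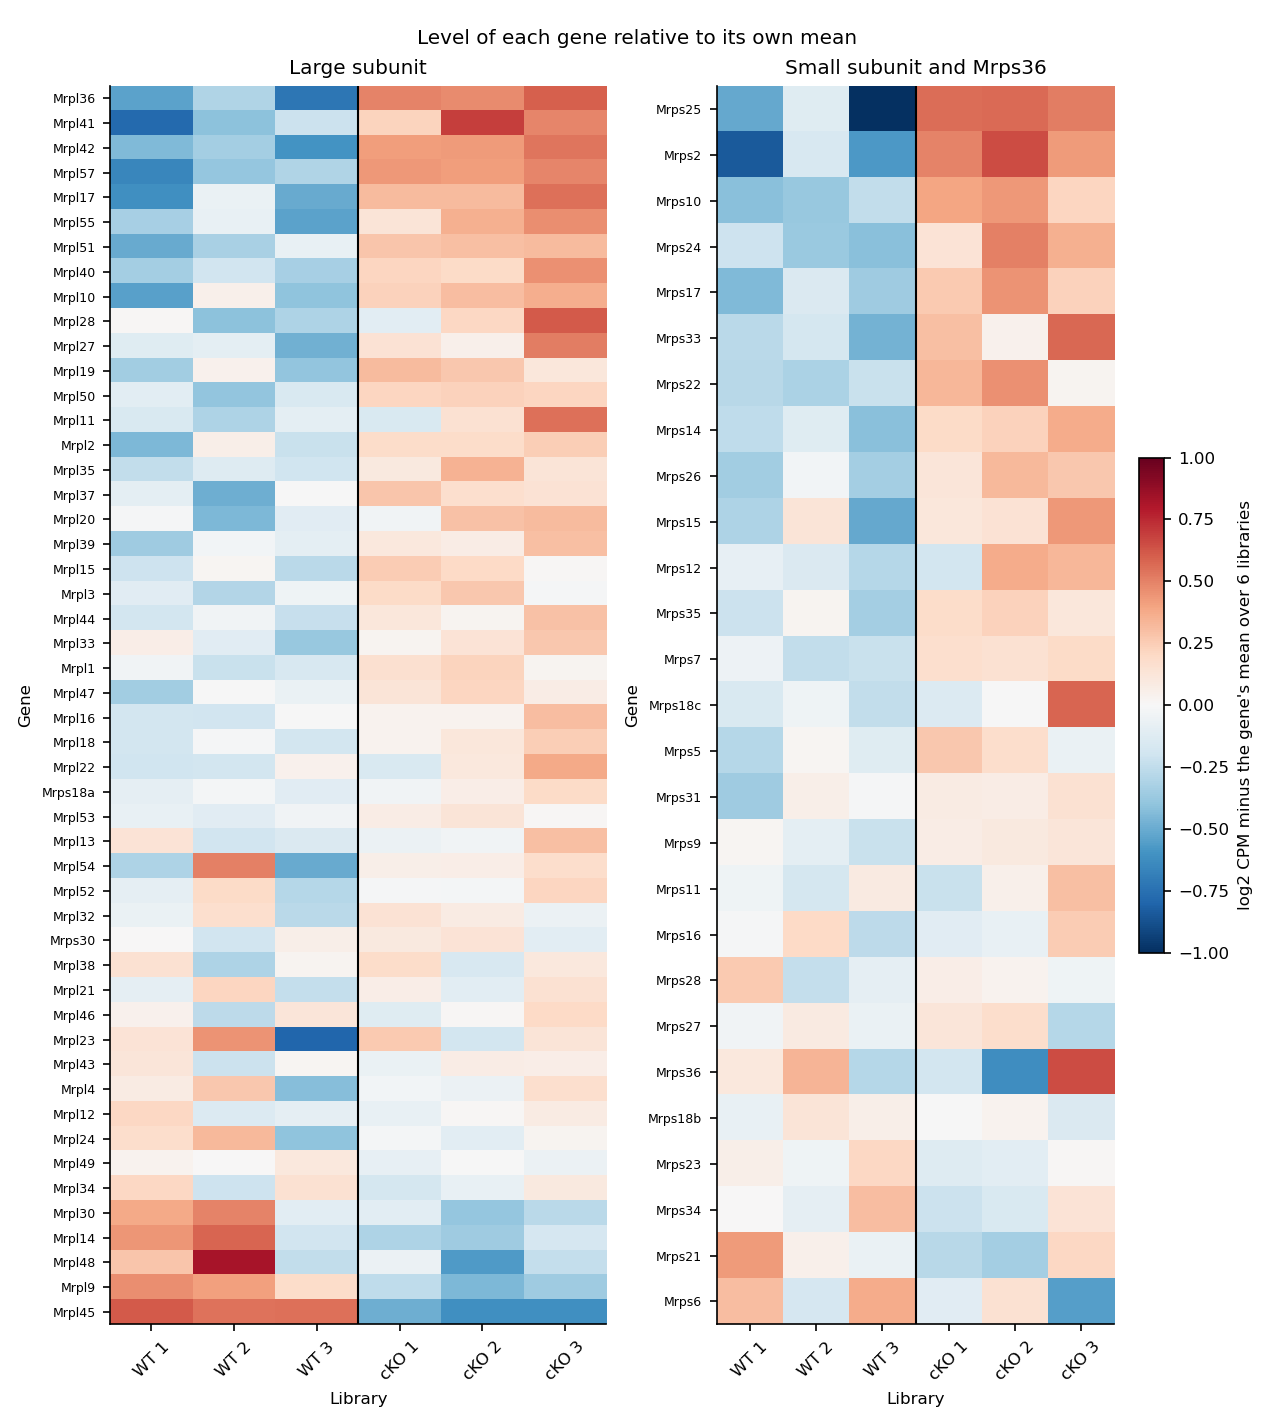
Log2 CPM of each of the 77 genes (rows) in each of the 6 libraries (columns), relative to the gene's own mean over the libraries; colour gives the difference. Most rows are higher in the Srsf1-cKO columns, and Mrpl45 and Mrpl9 show the opposite colours.

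Symbols with the same number are not variants of one protein. Mrps18a, Mrps18b and Mrps18c are paralogues that occupy different sites, the first in the large subunit and the other two in the small subunit. None of the 3 passed: the log2 fold changes were 0.15 for Mrps18a (edgeR adjusted p = 0.489), -0.08 for Mrps18b (0.737) and 0.33 for Mrps18c (0.294). Mrps18c was at 23.0, 25.3 and 38.0 CPM in Srsf1-cKO against 22.9 ± 1.61 in WT (SD, n = 3). Replicates 1 and 2 lay near the WT mean and replicate 3 well above it.

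Per transcript length, the most abundant member was Mrpl30, the counterpart of bacterial L30. Levels in FPKM (scaled by transcript length and library depth) were 172 ± 37.0 in WT and 127 ± 10.6 in Srsf1-cKO (SD, n = 3) for Mrpl30. By the mean over all libraries Mrpl33, the counterpart of bacterial L33, came next with 96.9 ± 12.2 and 126 ± 12.1 FPKM. Mrps21, of bacterial S21, followed with 107 ± 12.4 and 109 ± 22.3 FPKM, and was above Mrpl33 in the WT mean only. In WT the values of Mrps21 and Mrpl33 overlapped, and in Srsf1-cKO those of Mrpl30 and Mrpl33 overlapped, so neither order held beyond the spread. At the other end stood Mrps25, with 1.00 ± 0.34 and 2.22 ± 0.10 FPKM, and Mrpl17, with 3.06 ± 0.73 and 5.61 ± 0.53 FPKM. Both were among the genes that rose. The lengths implied by CPM over FPKM ran from 70.5 bases (Mrps36) to 9051 bases (Mrpl17), so the order of very short and very long gene models is uncertain.

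By count Mrpl30 was at 134, 145 and 95.7 CPM in WT and at 95.8, 78.7 and 85.3 CPM in Srsf1-cKO. WT replicate 3 lay level with Srsf1-cKO replicate 1, and the log2 fold change of -0.53 did not pass (SE 0.17, edgeR adjusted p = 0.0639). Mrpl30 passed with DESeq2 (adjusted p = 0.0340) and without the filter on low counts (0.0480), and, together with Mrpl14 and Mrpl48, without WT replicate 3.

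Summed over the 77 genes, levels were 2608, 2662 and 2469 CPM in WT and 2861, 2924 and 2930 CPM in Srsf1-cKO. All 3 Srsf1-cKO libraries were above all 3 WT libraries, and the ratio of the means was 1.13. The large subunit summed to 1858 ± 86.9 CPM in WT and 2030 ± 28.4 in Srsf1-cKO (SD, n = 3, ratio 1.09), and the small subunit to 719 ± 15.3 and 873 ± 28.0 (ratio 1.21). The large-subunit sum holds the abundant genes Mrpl45, Mrpl9 and Mrpl30, whose log2 fold changes were below 0. Without these genes, left out after their values were seen, the other members of both subunits summed to 2218 ± 63.5 and 2693 ± 52.9 CPM (ratio 1.21). As a share of all gene counts the 77 genes held 0.249% ± 0.0111 in WT and 0.301% ± 0.00911 in Srsf1-cKO.

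The libraries of a group were not equal across the 77 genes. The median over the genes of each library's log2 ratio to the WT mean was 0.00, 0.09 and -0.06 in WT and 0.17, 0.24 and 0.32 in Srsf1-cKO. WT replicate 2 was the highest WT library for 41 genes and WT replicate 3 the lowest for 33. Srsf1-cKO replicate 3 was the highest of its group for 43 genes and replicate 1 the lowest for 32. The median coefficient of variation was 13.0% in WT and 8.62% in Srsf1-cKO.

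The further mitoribosomal proteins known by other symbols gave no call. Of 6 such genes (Dap3, Ict1, Gadd45gip1, Ptcd3, Chchd1 and Aurkaip1) 0 passed with edgeR, DESeq2 or limma-voom. At an unadjusted p under 0.05, 2 were higher, against 1795 of all 10454 genes tested. The median log2 fold change of the 6 was -0.01. Ptcd3, a small-subunit protein, stood at 99.9 ± 10.7 CPM in WT and 131 ± 13.4 in Srsf1-cKO (0.39, edgeR adjusted p = 0.0793), and Gadd45gip1, of the large subunit, at 36.4 ± 3.53 and 31.5 ± 1.19 CPM (-0.21, 0.333).

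Genes that assemble the mitoribosome rose about as often as genes in general. Of 28 tested assembly and ribosomal RNA modification genes 3 rose (10.7%, against 8.9% of all genes) and 1 fell (3.57%, against 9.5%), with a median log2 fold change of 0.19. Mtg1, a GTPase of large-subunit assembly, rose from 5.11 ± 1.29 to 10.5 ± 1.12 CPM (1.04, edgeR adjusted p = 0.0239), and Fastkd2, which binds the large ribosomal RNA, from 42.8 ± 2.94 to 65.4 ± 9.96 CPM (0.61, 0.0287). Trub2, linked to pseudouridine synthesis in mitochondrial RNA, rose by a log2 fold change of 0.64 (edgeR adjusted p = 0.0409). Rpusd4, a pseudouridine synthase acting on the large ribosomal RNA, fell by 0.73 on the log2 scale (adjusted p = 0.0267).

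Among 16 translation factors and mRNA-binding partners (median log2 fold change 0.19), 1 rose (6.25%, against 8.9% of all genes). This was Slirp, which stabilises mitochondrial mRNA with LRPPRC, from 21.5 ± 2.08 to 32.6 ± 1.88 CPM (log2 fold change 0.60, edgeR adjusted p = 0.0287). The initiation factor gene Mtif3 did not pass (-0.52, adjusted p = 0.0641). Of 19 mitochondrial aminoacyl-tRNA synthetases, the enzymes that charge tRNAs, 1 fell (5.26%, against 9.5% of all genes). This was Hars2, by 0.67 on the log2 scale (edgeR adjusted p = 0.0264). DESeq2 and limma-voom each called 2 of the 19 lower, against 11.8% and 9.18% of all genes.

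For the copying and transcription of mitochondrial DNA, 0 of 10 genes passed with edgeR, DESeq2 or limma-voom. An unadjusted p under 0.05 was found for 1 of the 10, against 3644 of all 10454 genes tested. Tfam, which packages mitochondrial DNA and starts its transcription, had a log2 fold change of -0.07 (adjusted p = 0.742). Of 10 nuclear regulators of mitochondrial genes 0 passed with edgeR, DESeq2 or limma-voom, and 1, Yy1, had an unadjusted p under 0.05 (-0.39, edgeR adjusted p = 0.105). Myc, a driver of growth in activated T cells, had a log2 fold change of -0.34 (adjusted p = 0.225). Genes encoded by mitochondrial DNA have no rows in the count table analysed here, so ribosomal RNAs and products of the mitoribosome were not analysed.

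**Figure D4:**
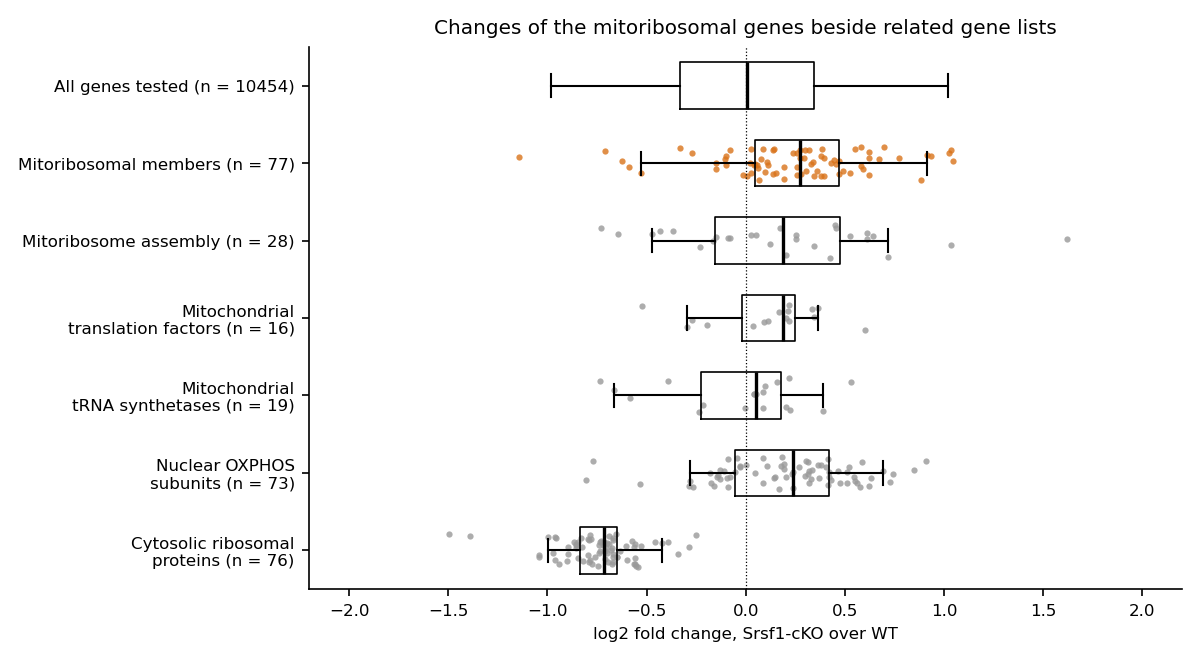
Log2 fold changes (Srsf1-cKO over WT, x axis) of the mitoribosomal genes and of related lists; points are genes, boxes span the quartiles with the median, and whiskers reach from the 5th to the 95th percentile. The mitoribosomal genes are centred at 0.27 and the cytosolic ribosomal proteins at -0.72.

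The cytosolic ribosome moved the other way. Of its 76 tested protein genes 71 fell (93.4%, against 9.5% of all genes) and 0 rose with edgeR, DESeq2 or limma-voom, or at an unadjusted p under 0.05, with a median log2 fold change of -0.72. Rps3 of the small subunit fell from 3345 ± 480 to 1719 ± 163 CPM, and Rpl10a of the large subunit from 495 ± 64.2 to 258 ± 18.5 CPM (SD, n = 3). These genes have many pseudogene copies, which can share reads. As a share of all counts they went from 9.58% ± 1.07 to 6.25% ± 0.368, which bears on library-size scaling.

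Nuclear-encoded subunits of oxidative phosphorylation, the complexes that the mitoribosome completes, had a median log2 fold change of 0.24. Of 73 tested 5 rose (6.85%) and 2 fell (2.74%), so edgeR calls in either direction were no more frequent than over all genes (8.9% and 9.5%). DESeq2 called 8 higher and 3 lower, against 10.1% and 11.8% of all genes. In 33 of the 73 every Srsf1-cKO library lay above every WT library, and in 2 every one lay below. The share above was 45.2%, close to the 46.8% of the mitoribosomal genes, against 19.9% of all genes. Sdhb of complex II rose from 68.2 ± 7.78 to 105 ± 8.54 CPM (0.63, edgeR adjusted p = 0.0186), and Atp5j of ATP synthase, Ndufa4, Ndufb8 and Uqcrc1 rose by 0.47 to 0.91. Uqcrh of complex III fell by 0.77 and Ndufa6 of complex I by 0.81 on the log2 scale (adjusted p 0.0135 and 0.0243). The oxidative phosphorylation subunits thus had calls in both directions beside a median above 0.

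**Figure D5:**
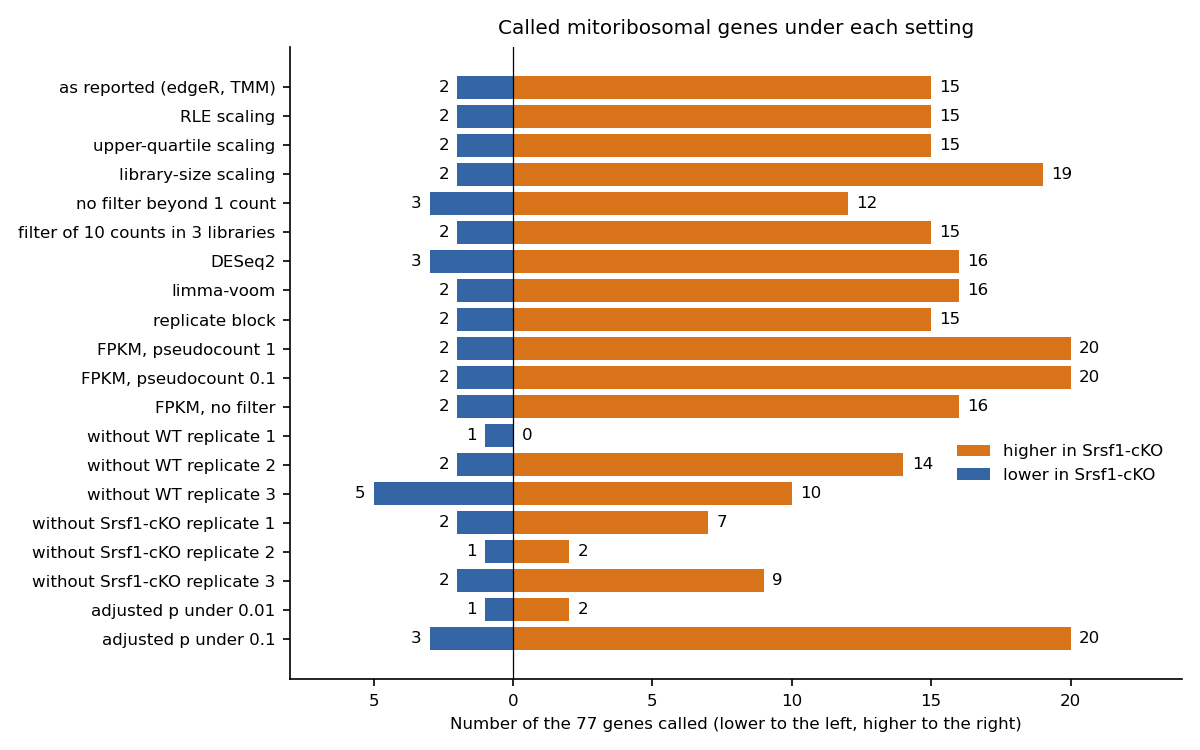
Number of the 77 genes called higher (right of 0) and lower (left of 0) in Srsf1-cKO, x axis, under each setting of the analysis, y axis. Between 12 and 20 were higher under the other scalings, filters, tools and the FPKM table, and between 0 and 14 when a library was left out.

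Scaling did not change which side the family lay on. Under library-size scaling 19 of the 77 rose (24.7%, against 12.1% of all genes) and 2 fell (2.6%, against 6.78%). The median of all genes moved to 0.11, and the median of the 77, 0.37, lay 0.27 above it. There 64.1% of all calls were higher, against 48.4% under TMM. On log2(FPKM + 1), tested with limma, 20 rose (26.0%, against 12.3% of all genes) and 2 fell (2.6%, against 6.39%), and 65.9% of all calls were higher. Mrpl45 was lower in every setting run, and Mrpl9 in all but 3: at an adjusted p under 0.01, and with WT replicate 1 or Srsf1-cKO replicate 2 left out.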

How the data were processed

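RNA was measured in 6 libraries of cultured mouse CD4 T cells, 3 per genotype. The whole-number counts per gene symbol were deposited by the authors without normalization, and STAR 2.4.2a is named per the file headers. A deposited table holds FPKM values, a unit read from its values, and the submitters' processing notes name Cufflinks and mm9. A deposited alignment report gives other metrics per library. Not given in the sources used here are the annotation, the counter and its use of strand. Overlapping genes may therefore share reads.

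Counts were tested in R 4.3.3 with edgeR 4.0.16 (filterByExpr, TMM, genotype as the only term, quasi-likelihood test, two-sided), adjusted by Benjamini-Hochberg over 10454 genes, at 0.05. Rose and fell are written only of genes that passed. SD is over 3 libraries. FPKM values were tested as log2(FPKM + 1) with limma 3.58.1, a scale that understates the change of low genes. DESeq2 1.42.0, limma-voom, other scalings, filters and thresholds, a replicate block and leaving out each library were alternatives. The scripts were tested on simulated data.

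The series gives 3 mice per genotype, and p-values measure the spread between these libraries. All replicate pairs differed by more than sampling noise. Same-numbered libraries of the 2 groups were not shown to be pairs. The members and lists were chosen with earlier results of these data known. The genes named are Srsf1, up to 8 members called in each direction with the smallest p, the 3 of highest and 2 of lowest FPKM, Mrps18a to c, the 2 largest changes that did not pass, the gene nearest the count minimum, and leading genes of each list; a few others, named for a direction or a count, were chosen after their values were seen. Gene neighbours came from GENCODE M21 by name, and promoters from RefSeq.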

Additional observations from a re-analysis of the deposited data

How the results depend on the processing

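With 3 libraries a group, the fit had little room to spare: leaving out one library gave between 0 and 14 genes that rose, between 1 and 5 that fell, and a median log2 fold change between 0.20 and 0.28. At an adjusted p under 0.01, 2 rose and 1 fell; at 0.1, 20 and 3. The median was 0.37 under library-size scaling, 0.35 on log2(FPKM + 1) with or without the filter on low values, and 0.36 at a pseudocount of 0.1. With the replicate block, 15 rose (14 of them among the 15 called without it) and 2 fell; the correlations of same-numbered libraries' deviations were 0.22, 0.01 and 0.27, WT replicate 2 correlated best with Srsf1-cKO replicate 1 (0.20), and the numbers were not taken to pair mice. DESeq2 called 16 higher (20.8%, against 10.1% of all genes) and 3 lower (3.9%, against 11.8%). Over all genes, 930 rose and 993 fell; the counts were 133 and 146 at 0.01, 1452 and 1520 at 0.1, 756 and 390 on unfiltered FPKM, 1186 and 615 on filtered FPKM (1167 and 607 at a pseudocount of 0.1), 80 and 115 with WT replicate 1 left out, 131 and 103 with Srsf1-cKO replicate 2 left out, and 568 and 553 with its replicate 1 left out. Of 361 values of the named members under alternatives, 325 kept their side of the threshold, 27 lost the call, 9 gained it and 0 of the called values changed sign. Apart from fewer samples or a stricter threshold, the cause was not tested. Depth limits the low members most: Mrps36, with 15 to 43 counts a library, had an SE of 0.39.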

Other observations

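Mrpl45 lies on mouse chromosome 11, as Srsf1 does. Among the 77 genes 10 lie there, of which 1 rose (Mrps24) and 1 fell (Mrpl45). In gene order 58 tested genes lie between Srsf1 and Mrpl45, and 2 between Srsf1 and Mrps23. Of the 100 tested genes nearest to Srsf1, 50 on each side, 23 were called (23.0%, 10 higher and 13 lower), against 19.7% of 860 tested genes on the chromosome and 18.4% of all genes. The gene next to Mrpl45, Npepps, which encodes a cytosolic aminopeptidase, also fell, from 197 ± 36.7 to 110 ± 8.81 CPM (SD, n = 3, log2 fold change -0.84, edgeR adjusted p = 0.0115). The gene on its other side, Gpr179, was barely detected and rose, from 0.459 ± 0.169 to 1.42 ± 0.170 CPM (1.62, edgeR adjusted p = 0.0402).

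Some mitoribosomal genes start next to a neighbour on the opposite strand. Of the 77 genes 10 (13.0%) had a protein-coding neighbour that starts within 1000 bases on the opposite strand, pointing away, against 6.27% of 9782 tested genes found in GENCODE. The called members with such a neighbour were Mrpl40 (Hira), Mrpl41 (Pnpla7) and Mrpl50 (Zfp189), and none of these neighbours passed edgeR's test: their log2 fold changes were -0.31, 0.81 and -0.35. Zfp189 and Hira thus had values below 0 beside a member that rose, while Pnpla7, at 5.70 ± 2.74 and 9.95 ± 0.456 CPM, had a value above 0 (adjusted p = 0.106). Beside members that did not pass, the neighbours Fau, Ppp1r10 and Slc5a3 fell, with log2 fold changes of -1.04, -0.53 and -1.07. Their members Mrpl49, Mrps18b and Mrps6 had values of -0.10, -0.08 and -0.33. The neighbours Sars2, Cyb5rl, Psma2 and Apba3 did not pass.

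Of the 77 genes 26 (33.8%, against 25.7%), 3 of them among the 10 above, overlap a protein-coding gene on the opposite strand, so their counts can hold reads of that gene if counting ignored strand. Of the called members these were Mrpl36 (with Ndufs6), Mrps24 (Urgcp), Mrps25 (Nr2c2), Mrpl40 (Gm28539, which has no counts) and Mrpl9 (Oaz3). Oaz3 was almost absent, at 0.0802 CPM in WT and 0 in Srsf1-cKO, beside 116 and 70.7 CPM for Mrpl9. Nr2c2, a nuclear receptor gene, stood at 165 ± 15.8 and 122 ± 32.8 CPM beside 8.59 ± 2.56 and 17.8 ± 0.339 CPM for Mrps25, and its log2 fold change of -0.43 did not pass (edgeR adjusted p = 0.161). Ndufs6, of complex I, stood at 28.4 ± 2.31 and 39.4 ± 7.07 CPM (0.48, adjusted p = 0.0843). Mrpl23, Mrpl48 and Mrps36 have pseudogenes named after them, whose reads may not be told apart from theirs.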
